A study of Mus musculus with 9 samples.

Results

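The 9 genes described here are regulators and early markers of fat cell formation, Pparg, Cebpa, Cebpb, Cebpd, Fabp4, Lpl, Lipe, Zfp423 and Ebf1, out of 52661 gene rows in the deposited table. They were selected on their known role in fat cell formation and on the levels of Pparg, Cebpa, Fabp4 and Lpl in Ctr1-null against wild type cells, which were known from these same libraries. All 9 passed the filter on low counts that left 18408 genes to test. RNA was sequenced from mouse embryonic fibroblasts, cultured connective-tissue cells, of the strain C57BL/6, immortalised in all groups with T/t antigen. The first group was of genotype wild type and untreated. The second, Ctr1-null, had the genotype Ctr1 -/-, which removes the copper importer of the cell membrane, and its library titles call the cells FloxedCtr1. The third was Ctr1-null and was given bathocuproine disulfonic acid (BCS), a chelator that binds copper outside the cell, for 48 hours at 500 μM per the sample labels, where the series record gives 500 mM. Each group held 3 libraries. All cells were grown with EGF and FGF-2 in N2-supplemented medium. The labels name no hormone mixture that drives fat cell formation, which does not show that the medium was free of hormones. The labels do not say whether replicates were separate cultures, so a p-value here measures the spread between libraries, which may be technical. Loss of Ctr1 cannot be told apart from other differences between the wild-type and the null cells, such as line or passage.

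Fat cells form from fibroblast-like precursors in steps. Zfp423 and Ebf1 are transcription factors that commit precursors to the fat lineage, and Cebpb and Cebpd are early factors that switch on Pparg and Cebpa after a hormonal stimulus. Pparg, a nuclear receptor for lipids, and Cebpa, its partner, then maintain each other and turn on genes of the fat cell, among them Fabp4, a carrier of fatty acids, Lpl, which frees fatty acids from circulating fat, and Lipe, the hormone-sensitive lipase that breaks down stored fat.

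RefSeq promoter windows, from 250 bases before to 50 after each annotated start in GRCm38.p6, were matched by symbol for 6 of the 9 genes, in 11 windows. Each was searched on both strands for a C/EBP motif (TTGCNNAA), the kind of site that Cebpa, Cebpb and Cebpd bind, and for a CCAAT box (CCAAT), a common promoter element. The 3 windows with a match are shown because they belong to 2 of the regulators whose RNA is followed below. Capitals mark the matches. The Pparg windows lie on the plus strand at chr6:115362099-115362398 and chr6:115421816-115422115, and the second of these belongs to the start of the Pparg2 form, which is typical of fat cells. The Zfp423 window lies on the minus strand at chr8:87959546-87959845.
Pparg, start 2: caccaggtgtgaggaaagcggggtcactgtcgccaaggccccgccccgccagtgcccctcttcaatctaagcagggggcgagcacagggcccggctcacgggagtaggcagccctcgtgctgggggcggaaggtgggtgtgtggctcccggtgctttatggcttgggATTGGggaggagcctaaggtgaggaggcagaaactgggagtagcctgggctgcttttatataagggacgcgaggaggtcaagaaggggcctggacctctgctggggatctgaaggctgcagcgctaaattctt
Pparg, start 3: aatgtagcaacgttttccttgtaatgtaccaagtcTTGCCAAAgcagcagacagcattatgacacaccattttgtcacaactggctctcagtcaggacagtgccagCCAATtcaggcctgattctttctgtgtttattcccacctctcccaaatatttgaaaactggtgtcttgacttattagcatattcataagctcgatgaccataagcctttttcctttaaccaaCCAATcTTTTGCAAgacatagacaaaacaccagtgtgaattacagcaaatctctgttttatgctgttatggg
Zfp423, start 1: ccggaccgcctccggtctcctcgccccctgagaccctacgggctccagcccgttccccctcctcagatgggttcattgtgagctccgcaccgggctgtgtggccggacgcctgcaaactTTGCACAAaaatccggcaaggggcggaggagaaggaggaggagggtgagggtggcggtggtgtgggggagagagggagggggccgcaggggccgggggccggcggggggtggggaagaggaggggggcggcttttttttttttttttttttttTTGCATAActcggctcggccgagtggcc
The window at Pparg start 3 held 2 C/EBP matches, whose first bases lie at -215 and -16 from the start, and 2 CCAAT boxes at -144 and -22. That at Pparg start 2 held a CCAAT box on the opposite strand at -83, and the Zfp423 window held C/EBP matches at -131 and 23. The CCAAT letters do not overlap the C/EBP matches in these windows. Of all 32851 RefSeq windows of this length, 10.8% held a C/EBP match and 37.4% a CCAAT box. A match is a description of the letters only. The deposited counts are per gene and do not separate the Pparg starts.

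Library totals ran from 38962036 to 57206337 counts. Levels are given as CPM, counts brought to a common library size, here with TMM factors, which also take out differences in library composition. Slc31a1, the gene of Ctr1 (GRCm38 chromosome 4, 62360727 to 62391769), was at 56.1, 54.8 and 54.9 CPM in wild type, at 2.54, 3.88 and 1.40 in Ctr1-null and at 3.24, 2.54 and 1.69 with BCS, so every library lay on the side of its label. Wild type replicate 1 stood apart from the other wild-type libraries, with a score of -2.04 on the first principal component against 67.1 and 63.3, and the null libraries without BCS ran from -32.0 to 9.05. The 9 genes are therefore given against wild type with and without it, as are some list genes. Genes that define the fibroblast, taken from 13 listed markers, summed to 16120 to 20890 CPM across the 9 libraries. Most of that sum came from Fn1, Vim, Col1a1 and Col1a2, while Thy1, Dcn, Lum and Postn of the same list were at group means of 0.0316 to 2.74 CPM. Of 11 markers of a mature fat cell, 7 had too few counts to test and 4 passed. Slc2a4, Aqp7 and Gpd1, which are not confined to fat cells, passed at group means of 0.426 to 0.859 CPM. Adrb3 was the highest of the 4, at group means of 1.997 CPM in wild type, 1.728 in Ctr1-null and 2.457 with BCS. Adipoq, the adipokine of fat cells, was at no more than 0.0797 CPM in any library, and Cfd was at 0 counts in every library except BCS replicate 1, where it had 1 count. Plin1 and Cidec, coats of the fat droplet, reached at most 0.419 and 0.103 CPM, and Lep had 0 counts in all 9 libraries. A count of 0 allows up to 3 counts, or 0.0546 to 0.0811 CPM depending on the library, and covers counting error only. The 11 markers together summed to 3.14 to 4.80 CPM in wild type, 3.73 to 4.65 in Ctr1-null and 4.94 to 5.84 with BCS.

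Compared per length, the 9 genes spanned a wide range of levels. On CPM per kb of the longest principal coding transcript, Cebpb (14.8 ± 5.57, SD, n = 3) and Pparg (11.6 ± 0.684) were highest in wild type, and their libraries overlapped. Ebf1 (6.96 ± 1.10), Cebpd (4.15 ± 0.343), Fabp4 (2.54 ± 0.984) and Lipe (1.47 ± 0.135) followed, each without overlap with its neighbour. Cebpa (0.796 ± 0.937), Lpl (0.351 ± 0.287) and Zfp423 (0.157 ± 0.0275) were lowest, and the spread of each overlapped that of its neighbour in this order, also between Lipe and Cebpa. In Ctr1-null cells Pparg stood at 29.9 ± 7.10 CPM per kb and Cebpb at 20.8 ± 4.68, still overlapping, ahead of Fabp4 (10.6 ± 1.85) and Ebf1 (9.15 ± 1.10), which overlapped each other. Cebpd (4.45 ± 0.598) and Cebpa (2.89 ± 1.37) overlapped next, and Lipe (1.57 ± 0.197), Lpl (0.702 ± 0.432) and Zfp423 (0.229 ± 0.0995) came last without overlap. With BCS the levels per kb were 27.3 ± 2.04 for Pparg, 25.5 ± 3.91 for Cebpb, 11.3 ± 3.36 for Fabp4 and 10.6 ± 1.03 for Ebf1. Below these, Cebpa (4.44 ± 0.404) and Cebpd (3.95 ± 0.148) overlapped, and Lipe (1.63 ± 0.203), Lpl (0.868 ± 0.311) and Zfp423 (0.323 ± 0.0659) did not overlap their neighbours. Lpl and Zfp423 thus stayed at the low end in all 3 groups. The order rests on the length used, since per kb of all annotated exons Cebpb was above Pparg in each group, by mean levels of 14.8 against 6.93 in wild type and 25.5 against 16.3 with BCS. On that length Fabp4 was at 0.506 in wild type, below Lipe (0.901) and Cebpa (0.793), and at 2.12 in Ctr1-null, below Ebf1 (5.61), Cebpd (4.45) and Cebpa (2.87).

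Pparg (chromosome 6, 115360951 to 115490399), the nuclear receptor at the centre of the programme, had even levels in wild type and higher ones in every null library. It was at 19.1, 21.2 and 21.1 CPM in wild type, 67.0, 43.0 and 48.5 in Ctr1-null and 49.9, 44.1 and 50.7 with BCS. Every null library, with or without BCS, lay above every wild-type library, and the BCS libraries fell inside the range of the untreated null libraries. Wild type replicate 1 was not apart from the other wild-type libraries for this gene. The log2 fold change was 1.37 ± 0.15 (SE) for Ctr1-null against wild type, a description because this contrast was known when the genes were chosen. In bulk RNA, a larger share of cells with Pparg and more Pparg RNA per cell cannot be told apart. BCS against Ctr1-null gave -0.13 ± 0.15 (95% interval -0.49 to 0.23, edgeR adjusted p = 0.721), less than the libraries differ among themselves, and it turned to 0.08 without Ctr1-null replicate 1, the highest library. BCS against wild type gave 1.24 ± 0.15, and 1.18 without wild type replicate 1, also a description, because the wild-type libraries are those on which the genes were known.

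Cebpa, the partner of Pparg (chromosome 7, 35119293 to 35121928), varied by several fold within the wild-type group. It was at 4.93, 0.595 and 0.744 CPM in wild type, from 237, 22 and 40 counts. In Ctr1-null it was at 5.59, 5.41 and 11.7 CPM, and with BCS at 10.4, 12.3 and 12.3. Wild type replicate 1 lay close under the lower null libraries, while wild type replicates 2 and 3 lay far below all others. The BCS libraries were close together, and Ctr1-null replicate 3 was at their level. Ctr1-null against wild type was 1.84 ± 0.67 with all libraries and 3.48 ± 0.40 without wild type replicate 1. BCS against Ctr1-null was 0.62 ± 0.63 (95% interval -0.92 to 2.17, edgeR adjusted p = 0.689), and the interval spans a fall and a rise. BCS against wild type was 2.47 ± 0.68 and 4.09 ± 0.40 without wild type replicate 1.

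The early factors Cebpb and Cebpd differed from each other. Cebpb (chromosome 2, 167688915 to 167690418) was at 31.8, 16.5 and 18.2 CPM in wild type, 26.5, 28.1 and 39.4 in Ctr1-null and 35.4, 34.5 and 45.1 with BCS. As for Cebpa, wild type replicate 1 was the high wild-type library, here inside the null range, and all BCS libraries lay above all wild-type libraries. Ctr1-null against wild type was 0.49 ± 0.25 for Cebpb, and 0.84 ± 0.18 without wild type replicate 1. Cebpb had 0.29 ± 0.25 for BCS against Ctr1-null (95% interval -0.31 to 0.89, edgeR adjusted p = 0.620) and 0.79 ± 0.25 for BCS against wild type. Without wild type replicate 1 the last value was 1.13 ± 0.18. Cebpd (chromosome 16, 15887286 to 15891031) was at 17.0, 14.7 and 14.9 CPM in wild type, 14.1, 18.1 and 17.8 in Ctr1-null and 14.5, 14.5 and 15.4 with BCS. The 3 groups of Cebpd overlapped throughout. Its log2 fold change was 0.10 ± 0.12 for Ctr1-null against wild type, -0.17 ± 0.12 for BCS against Ctr1-null (95% interval -0.46 to 0.11, edgeR adjusted p = 0.522) and -0.07 ± 0.12 for BCS against wild type (95% interval -0.36 to 0.21). Both genes share exonic bases with a gene on the opposite strand, 312 for Cebpb with Tmem189 (52.6 to 63.8 CPM) and 562 for Cebpd with Spidr (29.8 to 36.7 CPM). The library kit does not mark strand, so reads of the shared bases cannot be told apart.

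**Figure D1:**
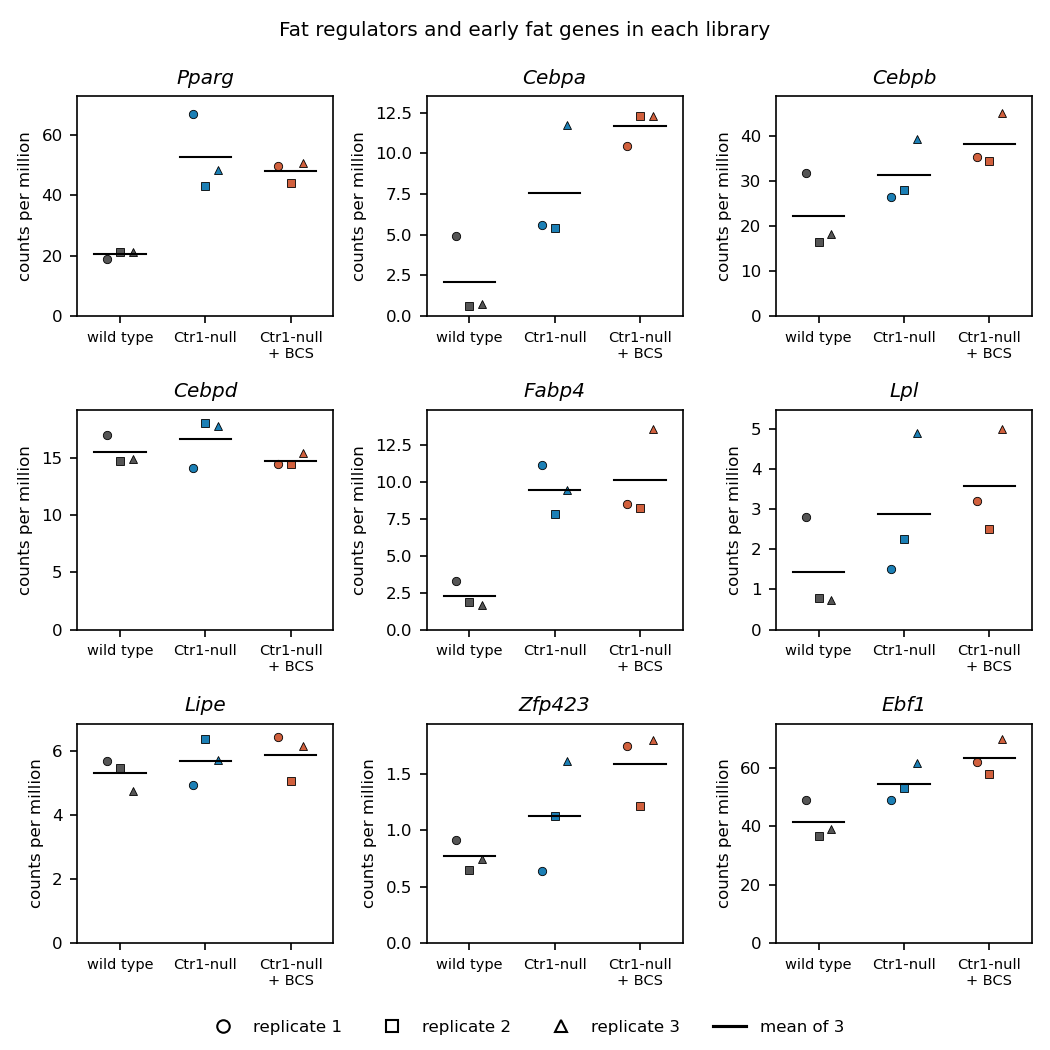
Level of each of the 9 genes in CPM (vertical axis from 0, scaled per gene) in the 3 libraries of each group (points, shape by replicate number) with their mean (bar). Pparg and Fabp4 in all null libraries lay above all wild-type libraries, Cebpa, Cebpb and Lpl had wild type replicate 1 well above replicates 2 and 3, and Cebpd and Lipe overlapped across groups.

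Among the early fat genes, Fabp4 (chromosome 3, 10204088 to 10208576) had the clearest separation. It was at 3.29, 1.84 and 1.69 CPM in wild type, 11.2, 7.85 and 9.50 in Ctr1-null and 8.52, 8.27 and 13.6 with BCS. No null library overlapped a wild-type one, and the groups with and without BCS overlapped. Ctr1-null against wild type was 2.06 ± 0.29. BCS against Ctr1-null was 0.09 ± 0.27 (95% interval -0.58 to 0.76, edgeR adjusted p = 0.911), and BCS against wild type was 2.15 ± 0.29, or 2.51 ± 0.27 without wild type replicate 1.

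Lpl (chromosome 8, 68880491 to 68907448) was at 2.81, 0.784 and 0.744 CPM in wild type, 1.51, 2.27 and 4.90 in Ctr1-null and 3.20, 2.52 and 4.999 with BCS, from 29 to 251 counts per library. Wild type replicate 1 exceeded 2 of the untreated null libraries and BCS replicate 2, so no pair of groups was free of overlap. Its log2 fold changes were 0.99 ± 0.58 for Ctr1-null against wild type, 0.31 ± 0.56 for BCS against Ctr1-null (95% interval -1.06 to 1.68, edgeR adjusted p = 0.842) and 1.30 ± 0.58 for BCS against wild type. The last was 2.22 ± 0.52 without wild type replicate 1.

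Lipe (chromosome 7, 25379527 to 25398710), the lipase of stored fat, was at 5.70, 5.46 and 4.76 CPM in wild type, 4.94, 6.36 and 5.72 in Ctr1-null and 6.44, 5.05 and 6.15 with BCS. The groups overlapped, with log2 fold changes of 0.10 ± 0.15 for Ctr1-null against wild type, 0.05 ± 0.15 for BCS against Ctr1-null (95% interval -0.32 to 0.42, edgeR adjusted p = 0.908) and 0.15 ± 0.15 for BCS against wild type. With the authors' factors per gene and library, recovered from their scaled table, the last became -0.34 ± 0.15. Lipe shares 918 exonic bases with 4732471J01Rik on the opposite strand, a gene at 0.606 to 0.891 CPM.

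The commitment factors Ebf1 and Zfp423 lay far apart in level. Ebf1 (chromosome 11, 44617317 to 45008091) was at 49.1, 36.8 and 39.0 CPM in wild type, 49.0, 53.3 and 61.9 in Ctr1-null and 62.2, 57.9 and 70.1 with BCS. Wild type replicate 1 was level with Ctr1-null replicate 1, and every BCS library lay above every wild-type library. Ebf1 had 0.39 ± 0.13 for Ctr1-null against wild type and 0.21 ± 0.13 for BCS against Ctr1-null (95% interval -0.11 to 0.53, edgeR adjusted p = 0.482). BCS against wild type gave 0.61 ± 0.13, and 0.73 ± 0.11 without wild type replicate 1. Ebf1 is also a factor of B lymphocytes, and 7 listed markers of those cells summed to 0.568 to 0.971 CPM over all libraries. Zfp423 (chromosome 8, 87661810 to 87959595) was at 0.915, 0.649 and 0.744 CPM in wild type, 0.634, 1.12 and 1.61 in Ctr1-null and 1.75, 1.21 and 1.79 with BCS, from 24 to 96 counts per library. The BCS libraries lay above the wild-type libraries, and Ctr1-null replicate 1 was the lowest library of all 9. Zfp423 had 0.54 ± 0.33 for Ctr1-null against wild type, 0.50 ± 0.32 for BCS against Ctr1-null (95% interval -0.29 to 1.28, edgeR adjusted p = 0.509) and 1.03 ± 0.33 for BCS against wild type. With the authors' factors these became -0.21 ± 0.42, 1.00 ± 0.40 and 0.79 ± 0.41, in the same order. Those factors were divided by each library's median factor and by the gene's geometric mean over libraries. The relative values ran from 0.559 to 1.61 across libraries for Zfp423, a wider spread than for 98.5% of genes.

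**Figure D2:**
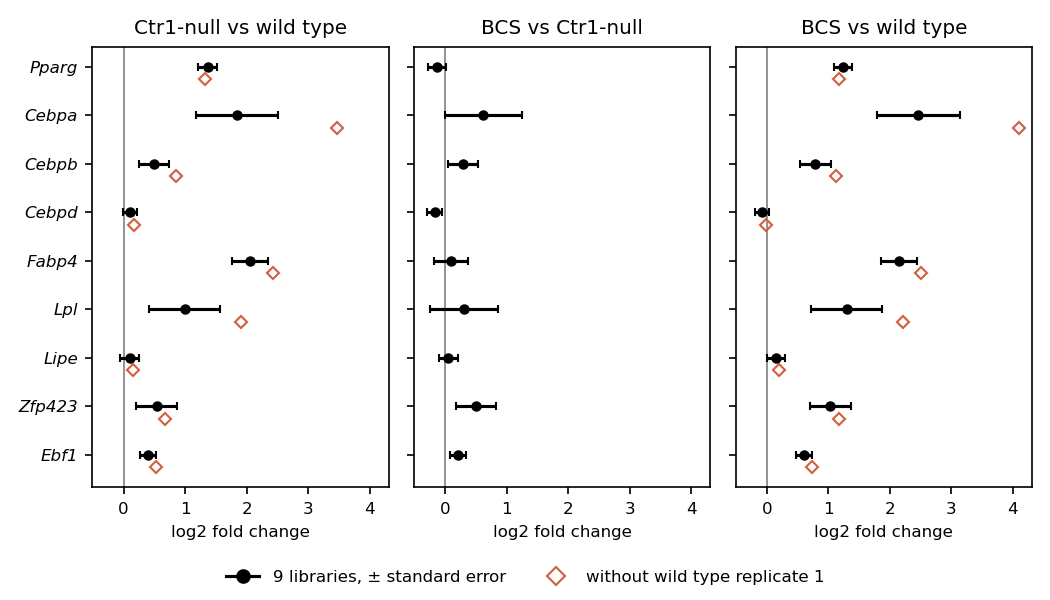
Log2 fold change of each gene in the 3 comparisons, from all 9 libraries (black, with standard errors) and, for comparisons with wild type, without wild type replicate 1 (open diamonds). BCS against Ctr1-null lies between -0.17 and 0.62 for the 9 genes, and Cebpa against wild type moves from 1.84 to 3.48 in Ctr1-null and from 2.47 to 4.09 with BCS when that library is left out.

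BCS against Ctr1-null tests what the chelator adds in cells without the importer, and was not the contrast on which the genes were chosen, although it shares the Ctr1-null libraries with that one. None of the 9 genes was called at an adjusted p under 0.05 by the edgeR quasi-likelihood test with Benjamini-Hochberg adjustment over all genes, where 0.0543% of genes were called. At an unadjusted p under 0.05 there were also 0 of the 9, the smallest being 0.134 for Ebf1, against 2708 of the 18408 genes, and DESeq2 called 0 of the 9 and 621 genes. In none of the 9 were all BCS libraries above all untreated null libraries, where 13.4% of genes had that pattern. Of the 9 log2 fold changes, 7 were positive, with a median of 0.21 against 0.002 over all genes. The intervals given above limit the change by BCS to between 0.712-fold and 1.17-fold for Pparg and between 0.669-fold and 1.70-fold for Fabp4, and leave 0.528-fold to 4.49-fold for Cebpa. A p above the threshold does not show that BCS left these genes the same.

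In Ctr1-null against wild type, 1 of the 9 genes was called, Pparg, where 0.0109% of genes were, and 3 had all null libraries above all wild-type libraries, Pparg, Cebpa and Fabp4, where 9.49% of genes had. All 9 log2 fold changes were positive, with a median of 0.54 against 0.005 over all genes, of which 9328 of 18408 were positive. These counts describe the contrast on which Pparg, Cebpa, Fabp4 and Lpl were known, and nothing is read from them. Without wild type replicate 1 there were 6 of the 9 called, Pparg, Cebpa, Cebpb, Fabp4, Lpl and Ebf1, while the genes called went from 2 to 3254. The log2 fold changes without that library were 1.32 ± 0.17 for Pparg, 2.43 ± 0.27 for Fabp4, 1.91 ± 0.52 for Lpl and 0.53 ± 0.11 for Ebf1. For Cebpd, Lipe and Zfp423 they were 0.17 ± 0.12, 0.15 ± 0.16 and 0.68 ± 0.38. Pparg was called in 10 of the 18 alternatives.

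BCS against wild type shares with that contrast the wild-type libraries, in which Pparg, Cebpa, Fabp4 and Lpl were known to be low when the genes were chosen. Its counts are given as a description, and nothing is read from them about the 9 genes. Pparg, Cebpa, Fabp4 and Ebf1 were called higher, 4 of the 9, where 8.56% of genes were called higher, and 0 were called lower, where 7.28% were. At an unadjusted p under 0.05, 0 of the 9 were lower either, and DESeq2 called 6 higher and 0 lower. In 6 of the 9, Pparg, Cebpa, Cebpb, Fabp4, Zfp423 and Ebf1, all BCS libraries lay above all wild-type libraries, where 20.0% of genes had that pattern. The median log2 fold change was 1.03, against 0.007 over all genes. Pparg and Fabp4 were called in all 18 alternatives. Without wild type replicate 1, 7 of the 9 were called, all but Cebpd and Lipe, which were at -0.01 ± 0.12 and 0.20 ± 0.16, and Zfp423 was at 1.17 ± 0.38. Without wild type replicate 2 or 3, or without BCS replicate 1 or 3, only Pparg and Fabp4 were. With library size alone as the scaling, the median of all genes moved to 0.105 and the genes called were 2064 higher and 784 lower, in place of 1576 and 1340 with TMM, while the same 4 of the 9 were called.

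The 9 genes did not vary in the same way across libraries. Relative to its own mean, Cebpd differed little between libraries, and Cebpa, Fabp4 and Lpl were lowest in wild type replicates 2 and 3. In Cebpa, Cebpb, Lpl, Zfp423 and Ebf1 the highest untreated null library was replicate 3, whereas Pparg and Fabp4 were highest there in replicate 1. Across the 9 libraries, the Pearson correlation of log2 CPM was 0.979 for Cebpb with Lpl, 0.974 for Cebpb with Ebf1 and 0.958 for Cebpa with Cebpb. It was 0.932 for Pparg with Fabp4 and -0.119 for Pparg with Cebpd. These are descriptions over libraries that fall into 3 groups and share their library scaling.

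**Figure D3:**
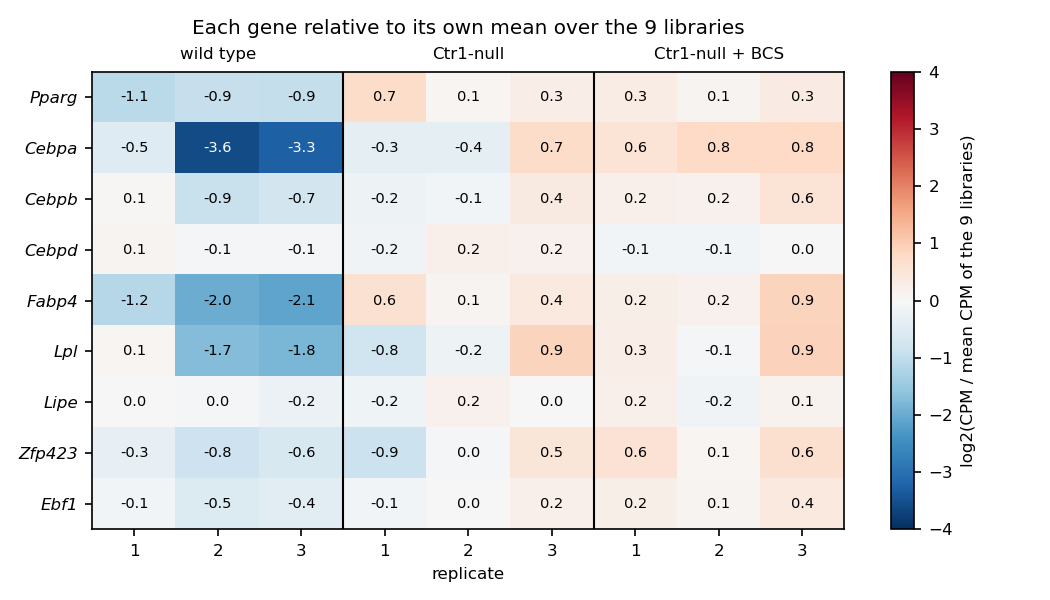
Level of each gene (rows) in each library (columns, by group and replicate) as log2 of its CPM over its mean CPM in the 9 libraries, with the value printed in each cell. Wild type replicates 2 and 3 are the lowest columns for Cebpa, Cebpb, Fabp4 and Lpl, where wild type replicate 1 is closer to the null libraries, and Cebpd and Lipe stay near 0 in every library.

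The genes most like 3 of the regulators were taken from 10261 genes with a mean of at least 5 CPM, by Pearson's r of log2 CPM over the same 9 libraries, again as a description. For Pparg these were Tulp3 (r = 0.974), Notch4 (0.970) and Lrrc49 (0.958). Notch4, a receptor of the Notch family, was at 2.95, 3.60 and 3.23 CPM in wild type, 10.1, 6.72 and 5.95 in Ctr1-null and 8.92, 6.40 and 8.88 with BCS. For Cebpa the closest were Elmo2 (0.996), Cdk14 (0.988) and Tor4a (0.986). Cdk14, a cyclin-dependent kinase, was at 33.2, 21.5 and 19.4 CPM in wild type and at 38.6 to 41.7 with BCS, so that wild type replicate 1 was its high wild-type library too. For Ebf1 they were Tcf7l1 (0.993), a transcription factor of the Wnt pathway, Ndrg4 (0.990) and Mr1 (0.989).

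Other genes of the pathway were taken from 5 lists, which hold none of the 9 genes. In Ctr1-null against wild type edgeR called 0 of the 111 list genes tested, where it called 2 of 18408 genes. DESeq2 called 18 of 130 list genes, where it called 991 of 34910. DESeq2 was run without the filter on low counts, so its totals include genes that edgeR left out. Such genes are a larger part of all genes than of the lists, so its 2 shares cannot be compared directly. At an unadjusted p under 0.05 edgeR had 36 of the 111 and 3239 of all genes. In BCS against Ctr1-null edgeR called 1 of the list genes and 10 of all genes, DESeq2 called 5 and 621, and edgeR had 23 and 2708 at an unadjusted p under 0.05. In BCS against wild type edgeR called 29 of the list genes and 2916 of all genes, DESeq2 called 39 and 3966, and edgeR had 49 and 6063 at an unadjusted p under 0.05. The counts for each list in BCS against wild type stand beside 8.56% of all genes called higher and 7.28% called lower, and nothing particular to a list is read from them. Of 25 measured genes listed as activators and cofactors of fat cell formation, 7 rose and 1 fell in BCS against wild type. Their median log2 fold change was 0.26, against 0.007 over all genes. Nr1h3, the liver X receptor alpha that senses sterols, was at 5.16, 3.76 and 3.63 CPM in wild type and 10.1, 9.56 and 9.14 with BCS, and rose by 1.20 ± 0.16 (edgeR adjusted p = 0.00560). Its untreated null libraries were between, at 8.21, 6.49 and 7.77 CPM. Rxra, the partner that binds DNA together with Pparg, rose by 0.62 ± 0.10 (edgeR adjusted p = 0.00718), from 68.0 to 70.4 CPM in wild type to 99.4 to 118.4 with BCS. Klf5, a factor that acts early in fat cell formation, fell by 0.79 ± 0.17 on the log2 scale (edgeR adjusted p = 0.0179). Nr3c1, the glucocorticoid receptor and the most abundant gene of the list, had 0.31 ± 0.12 (edgeR adjusted p = 0.107). Cebpg, a C/EBP factor that dimerises with other family members, had the smallest p of the list in BCS against Ctr1-null, with 0.33 ± 0.08 (edgeR adjusted p = 0.128).

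Of 26 measured genes listed as holding back fat cell formation, 3 rose and 2 fell in BCS against wild type, with a median of 0.14. Over all genes 8.56% rose and 7.28% fell. Wnt10b, a secreted signal that blocks fat cell formation, was at 20.5, 40.4 and 41.4 CPM in wild type, 10.3, 14.5 and 11.9 in Ctr1-null and 11.5, 9.96 and 8.70 with BCS. It fell by 1.76 ± 0.25 on the log2 scale in BCS against wild type (edgeR adjusted p = 0.00592), and Ctr1-null against wild type was -1.48 ± 0.25 (edgeR adjusted p = 0.0769). All null libraries lay below all wild-type libraries, and wild type replicate 1 was the lowest of its group. Ddit3, the stress-induced factor CHOP that binds C/EBP proteins and keeps them off their usual sites, was the 1 list gene called in BCS against Ctr1-null. It was at 29.5, 35.3 and 33.8 CPM in Ctr1-null and at 56.4, 60.4 and 62.0 with BCS, a rise of 0.86 ± 0.09 (edgeR adjusted p = 0.0148), and wild type was at 40.0, 34.7 and 37.3. Trib3, a stress-induced pseudokinase, had 1.54 ± 0.24 in that comparison (edgeR adjusted p = 0.0834) and rose by 1.46 ± 0.24 in BCS against wild type (edgeR adjusted p = 0.00808). Sirt1, a deacetylase, fell by 0.69 ± 0.14 on the log2 scale in BCS against wild type (edgeR adjusted p = 0.0138). Ctnnb1, the beta-catenin of Wnt signalling and the most abundant gene of the list, had 0.05 ± 0.07 (edgeR adjusted p = 0.634).

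Of 36 listed Pparg targets and lipid storage genes, 24 passed the filter, and in BCS against wild type 4 rose and 3 fell, beside the same 8.56% and 7.28% of all genes, with a median of 0.08. Plin4, a coat protein of fat droplets, was at 98.5, 59.6 and 58.8 CPM in wild type, 112.8, 186.0 and 199.2 in Ctr1-null and 244.0, 212.3 and 308.4 with BCS, and rose by 1.82 ± 0.26 (edgeR adjusted p = 0.00602). Its 3 groups did not overlap. Abca1, an exporter of cholesterol and a target of liver X receptors, rose by 1.64 ± 0.24 (edgeR adjusted p = 0.00638), from 8.06 to 11.4 CPM in wild type to 24.1 to 34.3 with BCS. In BCS against Ctr1-null Abca1 had the smallest p of this list, with 0.97 ± 0.24 (edgeR adjusted p = 0.133). Fabp5, another carrier of fatty acids, fell by 0.62 ± 0.15 on the log2 scale (edgeR adjusted p = 0.0273), the opposite direction to Fabp4. Cav1, the caveolin of surface pits, fell by 0.50 ± 0.15 on the log2 scale (edgeR adjusted p = 0.0475), a call that held in 5 of 18 alternatives. Scd2, a desaturase and the most abundant gene of the list, had -0.26 ± 0.21 (edgeR adjusted p = 0.424).

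Of 13 measured genes of triglyceride breakdown and its control, 3 rose and 3 fell in BCS against wild type, with a median of -0.05. The shares of all genes are the same as above. Angptl4, which rose, and Fabp5, which fell, are also counted in the storage list. Gpihbp1, which holds Lpl at the vessel wall, had 0 counts in all libraries. Angptl4, an inhibitor of Lpl that the storage list also holds, rose by 1.04 ± 0.23 (edgeR adjusted p = 0.0181), from 18.5, 11.2 and 10.8 CPM in wild type to 25.6, 25.1 and 33.0 with BCS. Mgll, the lipase of the last step of fat breakdown, rose by 1.87 ± 0.41 (edgeR adjusted p = 0.0189), at 2.002 to 2.83 CPM with BCS. Pde3b, the phosphodiesterase through which insulin restrains fat breakdown, fell by 0.96 ± 0.18 on the log2 scale (edgeR adjusted p = 0.0110). Prkaca, the catalytic kinase subunit upstream of Lipe and the most abundant gene of the list, had -0.05 ± 0.08 (edgeR adjusted p = 0.726).

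Of 25 measured hormone and growth factor inputs, 2 rose and 3 fell in BCS against wild type, with a median of 0.07, again beside 8.56% and 7.28% of all genes. Bmp2, a signal that favours commitment of precursors, was at 0.915, 0.622 and 0.911 CPM in wild type and 2.79, 2.25 and 2.51 with BCS, a rise of 1.61 ± 0.26 (edgeR adjusted p = 0.00781). Nog, which binds and blocks BMP proteins, fell by 1.74 ± 0.40 on the log2 scale (edgeR adjusted p = 0.0216), at 1.31 to 2.29 CPM in wild type and 0.359 to 0.833 with BCS. Thra, a thyroid hormone receptor, rose by 0.91 ± 0.18 (edgeR adjusted p = 0.0135). Igf1r, the receptor of insulin-like growth factor, fell by 0.46 ± 0.10 on the log2 scale (edgeR adjusted p = 0.0187), and in BCS against Ctr1-null it had -0.30 ± 0.10 (edgeR adjusted p = 0.237). Grem1, a further BMP blocker and the most abundant gene here, differed within wild type, with 389.7 CPM in replicate 1 against 34.9 and 33.5 in the others, and it ran from 261.0 to 537.5 across the null libraries. Its log2 fold change in BCS against wild type was 0.95 ± 0.80 (edgeR adjusted p = 0.443), and 3.10 without wild type replicate 1.

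**Figure D4:**
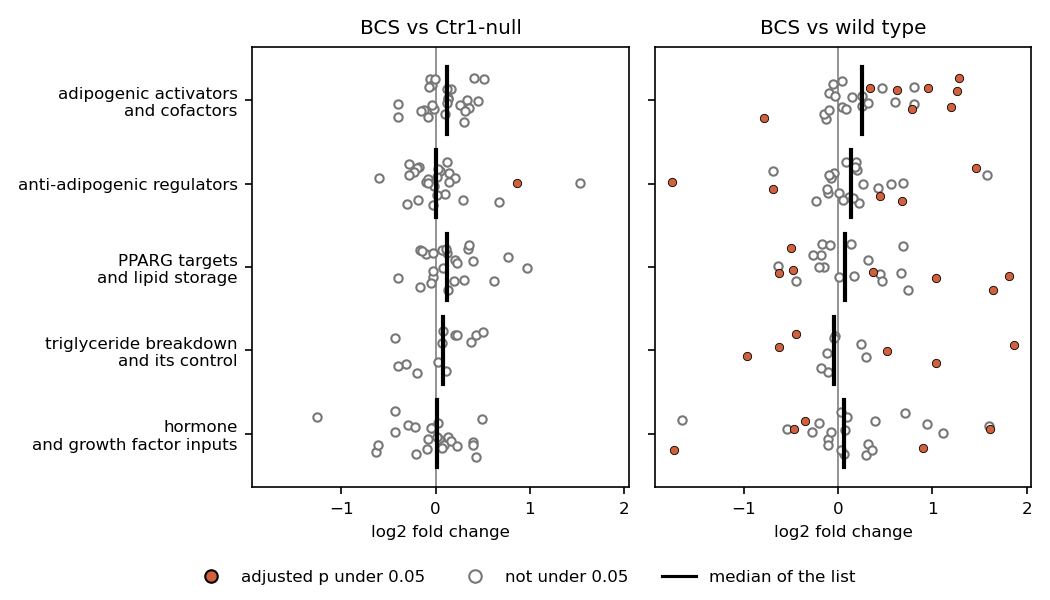
Log2 fold change of every measured gene (points) of the 5 pathway lists in BCS against Ctr1-null and BCS against wild type, filled where the adjusted p was under 0.05, with the median of each list (bar). Against Ctr1-null the 1 filled point is Ddit3, and against wild type each list has filled points on both sides of 0.

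Without wild type replicate 1, the counts called higher and lower in BCS against wild type were 11 and 1 for listed activators. They were 7 and 2 for genes listed as holding back fat cell formation and 6 and 6 for storage genes. For breakdown they were 3 and 3, and for hormone inputs 7 and 5. Without wild type replicate 2 they were 3 and 0, 2 and 1, 2 and 0, 0 and 1 and 1 and 1 in the same order, and without wild type replicate 3 or BCS replicate 3 they differed from these only in the last pair, 1 and 0. Without BCS replicate 1 they were 3 and 1, 2 and 2, 2 and 0, 0 and 2 and 2 and 0. Nr1h3, Rxra, Wnt10b, Ddit3, Trib3, Plin4, Abca1, Pde3b and Bmp2 kept their call in all 18 alternatives. Klf5, Sirt1 and Thra were called in 15 of the 18, Mgll, Angptl4 and Nog in 14, Igf1r in 13 and Fabp5 in 12. Mgll and Angptl4 were not called without wild type replicate 2 or 3, or without BCS replicate 1 or 3. Leaving out wild type replicate 1 moved the log2 fold change in BCS against wild type from 1.87 to 2.38 for Mgll, from 1.04 to 1.33 for Angptl4, from 1.82 to 2.10 for Plin4 and from -1.76 to -2.03 for Wnt10b.

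Summed levels of markers of other cell types are given beside these results. In BCS against wild type edgeR called 1 of 3 tested muscle markers, Des, and 1 of 3 tested brown or beige fat markers, Ppargc1a. It also called 1 of 12 tested fibroblast markers, Postn, and 0 in the other cell type lists. Their log2 fold changes were 2.68 ± 0.47, 1.29 ± 0.28 and 1.78 ± 0.46. These were calls higher, where 8.56% of all genes were called higher, and nothing is read from them. The 10 macrophage markers summed to 10.9 to 19.0 CPM in wild type, 17.1 to 22.7 in Ctr1-null and 19.2 to 26.6 with BCS, with Adgre1 and Tyrobp at 0 counts in all libraries and Cd68, at group means of 7.45, 12.9 and 16.3 CPM, the largest part. The 9 muscle markers summed to 4.39 to 4.58, 4.92 to 7.95 and 6.17 to 11.3 CPM, with Myod1 at 0, and the 7 brown or beige fat markers to 1.28 to 2.43, 3.43 to 5.31 and 3.78 to 4.32 CPM. The 10 bone and cartilage markers summed to 97.6 to 140.3, 130.7 to 216.6 and 163.7 to 169.3 CPM. Sums of the 7 epithelial markers were 2.58 to 9.89 CPM in wild type and 1.20 to 4.01 in null cells, and sums of the 8 endothelial markers overlapped at 24.4 to 38.5 CPM, with Cldn5 at 0. The part of these cell types in the levels of the 9 genes was not tested.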

How the data were processed

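Per the submitters' processing notes, the build was GRCm38 and the tools included STAR, Salmon, FastQC and DESeq2, with no version or role given. The deposited table holds estimated counts per gene, whole numbers that were not normalised, per the file. The authors' second deposited table holds a scaled signal, the counts divided by a factor for each gene and library, and served only as an alternative. Gene identifiers were matched to GENCODE M21, for 52566 of 52661 rows. Counts were scaled by TMM, filtered (filterByExpr, minimum count 10, minimum total 15) and tested in edgeR 4.0.16 (R 4.3.3) by a quasi-likelihood fit of all 9 libraries in 3 groups, with 6 residual degrees of freedom, 2-sided p-values and Benjamini-Hochberg adjustment over 18408 genes. Genes were called at an adjusted p under 0.05, and the fit was tested on simulated data. Depth was 38962036 to 57206337 counts per library, and intervals come from the fit's standard errors with the 6 residual degrees of freedom. The p-values of the edgeR test rest on more degrees of freedom, since the fit shares spread between genes. The intervals are therefore wider than those p-values imply. The members, lists and naming rule were chosen with earlier results of these data known. The rule names from each list up to 2 called genes in each direction, or the smallest p, and the most abundant gene, plus the 3 genes most like Pparg, Cebpa and Ebf1. The value of 1 gene that the rule names is not reported here. Gpihbp1 and the cell type markers other than Adipoq, Plin1, Cidec and Cfd were named after their values were seen. Alternatives were other scalings, filters and tests (DESeq2 1.42.0, limma-voom in limma 3.58.1), a fit of the groups compared, a replicate block and leaving out each library. Those for the pathway lists were added after seeing the data. No sample was left out of the main fit. Figures used matplotlib 3.10.9.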

Additional observations from a re-analysis of the deposited data

How the results depend on the processing

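For Ctr1-null against wild type, where 2 genes and 1 of the 9 were called, DESeq2's size factors, library size alone, the authors' factors and a stricter filter each called 4 genes, limma-voom 6 and a fit of only the groups compared 1, with 0 of the 9. No filter called 265 genes and 2 of the 9, and DESeq2 991 and 2. For BCS against Ctr1-null, no filter called 114 genes and DESeq2 621, with 0 of the 9 in all 18 settings. With a replicate block the called genes were 1, 2 and 1543 and the called members 0, 0 and 3, in the order Ctr1-null against wild type, BCS against Ctr1-null and BCS against wild type. Deviations from the group means correlated between -0.319 and 0.275 for same-numbered libraries and between -0.287 and 0.412 for differently numbered ones. With 3 libraries per group these values cannot settle whether replicate numbers pair the samples. The fit without a block is the one reported. Leaving out 1 library gave 1 to 3254 genes and 0 to 6 of the 9 called for Ctr1-null against wild type, 0 to 183 genes for BCS against Ctr1-null and 568 to 5840 genes and 2 to 7 of the 9 for BCS against wild type, in each case highest without wild type replicate 1.

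Among single genes, small differences changed sign. With library size alone, BCS against wild type was 0.022 for Cebpd and 0.055 for Prkaca. With the authors' factors, Lipe was -0.012 for Ctr1-null against wild type, -0.33 for BCS against Ctr1-null and -0.34 for BCS against wild type, and Zfp423 was -0.21 for Ctr1-null against wild type. When 1 library was left out, BCS against Ctr1-null ran from -0.26 to 0.076 for Pparg, -0.18 to 0.22 for Fabp4, -0.016 to 0.91 for Lpl and -0.037 to 0.14 for Lipe, and BCS against wild type from -0.14 to 0.0030 for Prkaca. The cause was not tested in these cases. Counts were under 100 for Zfp423 in all 9 libraries and, in some, for Cebpa, Fabp4 and Lpl, which limits their precision.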
